A study of Mus musculus with 9 samples.

Results

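Transcript levels of 10 genes of the NF-kB system were examined in the livers of ethanol-fed mice. The genes were taken by name from the 55401 rows of the deposited gene table. They comprise *Tnf*, which encodes the ligand TNF-alpha, 5 genes of inhibitory or feedback proteins (*Nfkbia*, *Nfkbib*, *Nfkbiz*, *Bcl3* and *Tnfaip3*) and 4 genes of DNA-binding subunits (*Rela*, *Nfkb1*, *Nfkb2* and *Relb*). The 5 are called inhibitor genes below as a label of the group, which does not state how each protein acts. The libraries came from 4 *Ncf1Lyz-/-* (NKO) mice and 5 WT mice, all females aged 10 to 12 weeks on a background labelled C57BL/6. Every animal took a liquid diet for 5 days of acclimatization and then 10 days of a diet holding 5% (v/v) ethanol, and a gavage of 5 g/kg ethanol preceded liver collection by 9 hours. *Ncf1* encodes a cytosolic subunit of the phagocyte NADPH oxidase. All mice of both genotypes carried floxed *Ncf1*, and Lyz-Cre, which is active in cells of the myeloid lineage, was carried by the NKO mice and not by the WT littermates. No animal on control diet was among these libraries, so every value below is a level under ethanol. RNA was taken from whole liver, in which fewer cells of a type and less RNA per cell cannot be told apart.

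NF-kB is a family of dimeric transcription factors that is held in the cytoplasm of resting cells by IkB proteins. Binding of TNF-alpha, interleukin-1 or endotoxin to their receptors leads to activation of the IkB kinase (IKK) complex, which marks IkB for breakdown and lets the dimers enter the nucleus. Several of the induced genes encode proteins that end the response, among them IkB-alpha itself and the ubiquitin-editing enzyme of *Tnfaip3*, and transcripts of these feedback genes are widely used as a readout of recent NF-kB activity. In the liver, endotoxin from the gut is a known trigger in ethanol feeding, with Kupffer cells a main source of TNF-alpha.

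The promoters are shown first because binding sites for NF-kB in a gene's own promoter are the basis of such feedback. RefSeq windows of 300 bases (250 before and 50 after the annotated transcription start, GRCm38.p6) were found for 7 of the 10 genes, and both strands were searched for the 10-base kappa-B consensus. A match lay in the most upstream window of *Nfkbia*, *Tnfaip3*, *Bcl3* and *Nfkb2*, that is in 4 of 7 genes, against 5.14% of all 27025 genes with a window (4.51% of 32851 windows). *Nfkbib*, *Rela* and *Tnf* had no match in theirs, which says only that these letters are not in this stretch. For *Nfkbib* the first transcribed bases of the window were in none of the gene's GENCODE transcripts, so its window may not hold the start in use. The 4 windows with a match and that of *Rela*, a subunit gene without one, read as follows in the direction of transcription, with the matches in capitals.
Nfkbia, chr12:55492598-55492897, minus strand: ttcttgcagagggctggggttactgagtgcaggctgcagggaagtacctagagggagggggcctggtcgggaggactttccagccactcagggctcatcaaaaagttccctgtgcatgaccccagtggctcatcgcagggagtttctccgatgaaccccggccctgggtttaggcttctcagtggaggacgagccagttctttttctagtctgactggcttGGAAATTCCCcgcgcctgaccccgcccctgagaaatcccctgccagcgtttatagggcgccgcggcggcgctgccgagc
Tnfaip3, chr10:19015361-19015660, minus strand: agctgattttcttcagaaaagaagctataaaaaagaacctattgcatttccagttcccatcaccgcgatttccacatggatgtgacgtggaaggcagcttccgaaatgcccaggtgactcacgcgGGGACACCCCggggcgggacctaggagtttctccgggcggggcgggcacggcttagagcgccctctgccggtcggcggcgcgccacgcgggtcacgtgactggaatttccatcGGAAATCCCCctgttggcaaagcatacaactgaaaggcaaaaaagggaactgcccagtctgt
Bcl3, chr7:19822706-19823005, minus strand: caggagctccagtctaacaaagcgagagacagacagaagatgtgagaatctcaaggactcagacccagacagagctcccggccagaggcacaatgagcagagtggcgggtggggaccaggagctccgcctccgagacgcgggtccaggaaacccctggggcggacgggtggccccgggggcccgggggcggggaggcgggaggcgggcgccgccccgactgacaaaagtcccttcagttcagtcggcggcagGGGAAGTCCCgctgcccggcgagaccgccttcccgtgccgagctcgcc
Nfkb2, chr19:46304487-46304786, plus strand: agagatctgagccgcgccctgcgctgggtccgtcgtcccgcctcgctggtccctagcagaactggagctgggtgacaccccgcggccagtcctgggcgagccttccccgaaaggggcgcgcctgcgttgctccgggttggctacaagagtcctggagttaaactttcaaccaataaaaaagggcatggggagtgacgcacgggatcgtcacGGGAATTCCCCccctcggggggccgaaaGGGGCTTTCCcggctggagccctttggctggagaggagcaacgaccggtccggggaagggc
Rela, chr19:5637291-5637590, plus strand: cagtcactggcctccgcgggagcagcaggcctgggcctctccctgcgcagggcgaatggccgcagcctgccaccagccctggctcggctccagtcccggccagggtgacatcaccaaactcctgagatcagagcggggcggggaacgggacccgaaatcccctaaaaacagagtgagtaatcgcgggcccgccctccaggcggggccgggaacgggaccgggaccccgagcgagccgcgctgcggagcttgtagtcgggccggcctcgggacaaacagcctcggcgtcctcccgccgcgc

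The match in *Nfkbia* begins 29 bases before the start. Those in *Tnfaip3* begin 125 and 12 bases before it, and that in *Bcl3* begins at transcribed base 3. In *Nfkb2* the palindrome GGGAATTCCC, which reads alike on both strands and begins 39 bases before the start, overlaps a further match that begins 38 bases before it, and GGGGCTTTCC begins 11 bases before it. These are descriptions of the letters, and binding was not measured.

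The table holds FPKM values (fragments per unit of transcript length, corrected for the size of the library) and no counts. Depth, recovered from the steps between the lowest values of single-exon genes, was 18.6 to 20.1 M fragments (M, mega) in NKO libraries and 15.2 to 18.6 M in WT libraries. Depth was lower in WT3, WT4 and WT6 (15.2 to 15.9 M) than in WT1, WT2 and all NKO libraries (18.1 to 20.1 M). *Ncf1* had 0.368, 0.333, 0.440 and 0.885 FPKM in NKO livers, against 1.82, 1.16, 0.492, 0.366 and 1.10 FPKM in WT livers, so the groups overlapped (log2 fold change −0.74; two-sided exact permutation test, p = 0.175). The WT livers in the overlap were WT3 and WT4, both of lower depth. WT3 overlapped through NKO5 alone (0.885 FPKM), the highest NKO liver, whereas WT4 lay between NKO3 and NKO2. Within the 6 libraries of higher depth the groups did not overlap, where 15.4% of all tested genes did not. The *Ncf1* log2 fold change there was −1.44 (unadjusted p = 0.0102, adjusted p = 0.867 from limma). These values are for the whole gene and do not separate the floxed exons. *Lyz2*, whose locus carries the Cre in NKO mice, had 20.1, 33.4, 18.03 and 23.6 FPKM in NKO livers, against 44.3, 90.1, 29.7, 26.4 and 34.8 FPKM in WT livers (two-sided exact permutation test, p = 0.0714). Hepatocyte markers were abundant in every library, with *Alb* (albumin) at 34910 to 46840 FPKM in NKO livers and 31820 to 42260 FPKM in WT livers.

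None of the 9 genes that could be tested passed the threshold for a difference between NKO and WT livers. *Nfkbia*, *Nfkbiz*, *Bcl3* and *Nfkb1* had higher mean log2 levels in NKO livers, and *Nfkbib*, *Tnfaip3*, *Rela*, *Nfkb2* and *Relb* had lower ones. The most prominent feature lay within the NKO group, where 1 of the 4 livers, NKO5, held the highest levels of *Tnf*, *Nfkbia*, *Nfkbiz*, *Bcl3* and *Tnfaip3*. The plot of levels by library shows both features. Of the 55401 genes, 12350 averaged 0.5 FPKM or more and entered the limma fit of log2(FPKM + 0.1). There, 0 of the 9 genes passed an adjusted p of 0.05, where 0.00810% of all tested genes did. At an unadjusted p of 0.05, 0 of 9 passed, against 5.90% of all tested genes (2.17% higher and 3.73% lower in NKO livers). NKO and WT values overlapped for all 10 genes, whereas 2.21% of tested genes had groups that did not overlap. The median log2 fold change of the 9 genes was −0.06, and that of all tested genes was 0.00301.

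**Figure D1:**
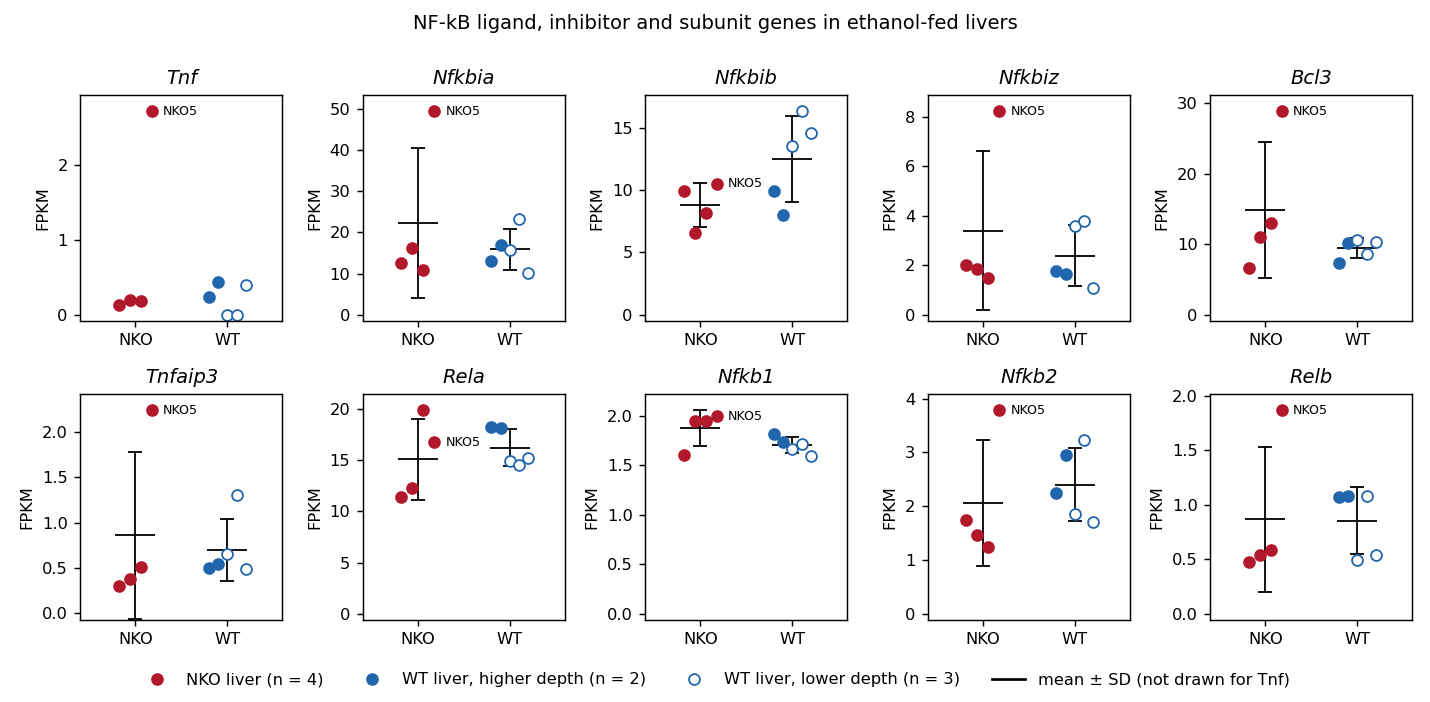
Level of each gene in FPKM (y axis, linear) in 4 NKO livers (left, red) and 5 WT livers (right, blue; open circles are the 3 libraries of lower depth), with the mean and SD except for Tnf, which is listed at 0.0001 in 2 WT livers. NKO5 is the highest of the 9 livers for 8 of the 10 genes, the exceptions being Nfkbib and Rela, and the remaining NKO livers lie within or near the WT range.

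*Tnf*, the gene of the ligand (chr17:35199381-35202007, minus strand, GRCm38), was at 0.128, 0.201, 0.184 and 2.72 FPKM in NKO2 to NKO5, against 0.235, 0.433, 0.0001, 0.0001 and 0.396 FPKM in WT1 to WT4 and WT6. The value of 0.0001 marks an absent gene. With a transcript of 1639 bases these levels stand for about 4.00, 6.43, 5.61 and 89.8 fragments in NKO livers and 6.99, 13.2, 0, 0 and 9.93 fragments in WT livers, so *Tnf* was near the limit of detection in 8 of the 9 livers. A count of 0 allows up to 3 fragments, or 0.120 FPKM in WT3 and 0.115 FPKM in WT4, which is close to the level in NKO2. The level in NKO5 was 6.29 times the highest of the other 8. The mean over all 9 libraries, 0.478 FPKM, was under the minimum for the fit. A two-sided exact permutation test of mean log2 levels gave p = 0.341 (the smallest p the groups allow is 0.00794), and p = 0.786 without NKO5.

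Among the inhibitors, *Nfkbia* (chr12:55489410-55492647, minus strand) encodes IkB-alpha, which binds dimers of the *Rela* and *Nfkb1* products and is quickly resynthesized after activation. Its level was 12.6, 16.1, 10.9 and 49.5 FPKM in NKO2 to NKO5, against 13.1, 17.1, 15.8, 23.3 and 10.2 FPKM in the WT livers. NKO2, NKO3 and NKO4 lay inside the WT range and NKO5 lay above it. The means were 22.3 ± 18.3 FPKM in NKO livers (SD, n = 4) and 15.9 ± 4.90 FPKM in WT livers (SD, n = 5), a log2 fold change of 0.25 (95% interval −0.69 to 1.19; adjusted p = 0.955 from limma). Without NKO5 the NKO mean was 13.2 ± 2.65 FPKM (SD, n = 3) and the log2 fold change turned to −0.23 (adjusted p = 0.983 from limma). The sign of the difference thus rested on 1 liver.

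*Nfkbib* (chr7:28758251-28767512, minus strand) encodes IkB-beta, a relative of IkB-alpha with a slower turnover. Of the 5 inhibitor genes it alone was not highest in NKO5, which was the highest NKO liver at 1.06 times the median of the other 8 livers. Its level was 9.96, 6.60, 8.20 and 10.5 FPKM in NKO2 to NKO5, against 9.92, 7.97, 13.6, 16.3 and 14.6 FPKM in the WT livers. The log2 fold change was −0.47 (95% interval −0.98 to 0.04; adjusted p = 0.853 from limma; exact permutation test, p = 0.127). The higher WT values were all from libraries of lower depth: WT3, WT4 and WT6 averaged 14.85 ± 1.39 FPKM (SD, n = 3), whereas the other 6 libraries averaged 8.86 ± 1.51 FPKM (SD, n = 6) with no overlap, and among these 6 the log2 fold change was −0.03 (95% interval −0.58 to 0.51). No other of the 10 genes separated the libraries in this way, and 2.11% of all tested genes did so in the same direction (7.50% in the opposite one). Depth set and genotype cannot be told apart for WT3, WT4 and WT6, since no NKO library was of lower depth. Exons of *Nfkbib* overlap those of *Sirt2* and *Ccer2* on the opposite strand, and the strand setting of the authors' counting is not given in the sources used here.

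**Figure D2:**
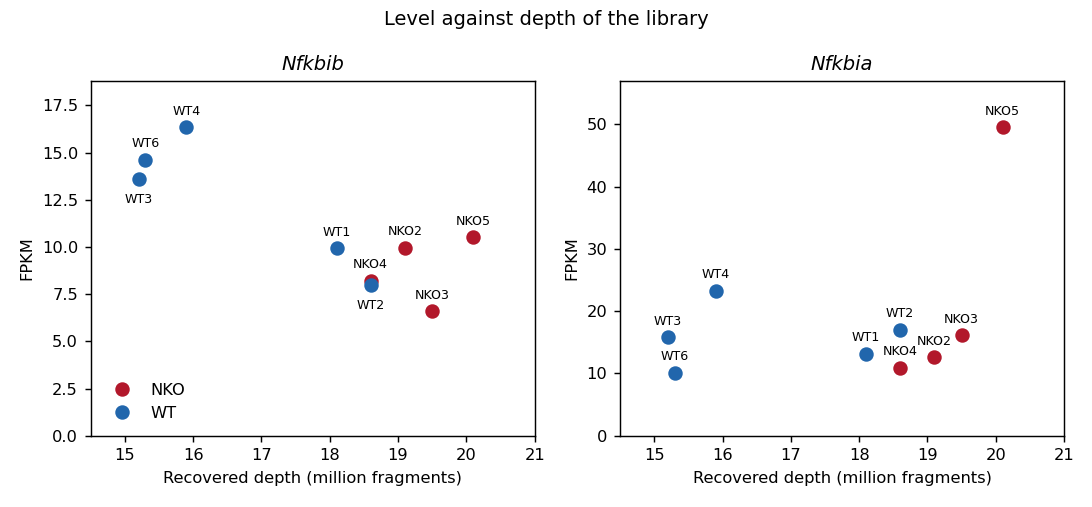
Level in FPKM (y axis) of Nfkbib (left) and Nfkbia (right) against the recovered depth of each library in M fragments (x axis); red, NKO livers; blue, WT livers. The 3 WT libraries at 15.2 to 15.9 M fragments have the highest Nfkbib levels (13.6 to 16.3 FPKM), whereas for Nfkbia they span 10.2 to 23.3 FPKM and NKO5 alone stands high at 49.5 FPKM.

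*Nfkbiz* (chr16:55811375-55838899, minus strand) encodes IkB-zeta, a nuclear protein that is induced by toll-like receptor and interleukin-1 signaling and that works with *Nfkb1* products on secondary response genes. It had 2.02, 1.86, 1.47 and 8.22 FPKM in NKO2 to NKO5, against 1.77, 1.65, 3.58, 3.80 and 1.09 FPKM in the WT livers. NKO5 was 2.16 times the highest of the other 8, and WT3 and WT4 were the next highest. The log2 fold change was 0.28 (95% interval −0.89 to 1.45; adjusted p = 0.958 from limma), or −0.26 without NKO5.

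*Bcl3* (chr7:19808462-19822770, minus strand) encodes a nuclear IkB protein that binds homodimers of the *Nfkb1* and *Nfkb2* products. It had 6.62, 11.0, 13.0 and 28.9 FPKM in NKO2 to NKO5, against 7.37, 10.2, 10.7, 8.65 and 10.2 FPKM in the WT livers. The WT livers were close together (9.42 ± 1.38 FPKM; SD, n = 5), and the NKO livers extended below and above them (14.9 ± 9.69 FPKM; SD, n = 4). Its log2 fold change, 0.46, was the highest of the 9 genes (95% interval −0.32 to 1.24; adjusted p = 0.900 from limma) and became 0.07 without NKO5. Without NKO2, the lowest NKO liver, it was 0.78 (adjusted p = 0.724 from limma). Leaving out NKO2 raises the NKO mean of *Bcl3* by construction, so no group difference is read from that value. Exons of 1 further gene, *Gm16175*, overlap those of *Bcl3* on the opposite strand.

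*Tnfaip3* (chr10:19000910-19015657, minus strand) encodes the ubiquitin-editing enzyme that shuts off signaling between receptor and IKK. It had 0.302, 0.381, 0.507 and 2.24 FPKM in NKO2 to NKO5, against 0.499, 0.546, 0.658, 1.31 and 0.487 FPKM in the WT livers. WT4 was far above the other WT livers, and NKO5 was 1.72 times WT4. NKO2 and NKO3 lay below every WT liver, while NKO4 lay within the WT range. The log2 fold change was −0.06 (95% interval −1.19 to 1.08; adjusted p = 0.992 from limma), and it was −0.62 without NKO5 (95% interval −1.39 to 0.15; exact permutation test, p = 0.125).

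Turning to the subunits, *Rela* (chr19:5637483-5648130, plus strand) encodes the main transactivating subunit. It had 11.4, 12.3, 19.9 and 16.7 FPKM in NKO2 to NKO5, against 18.2, 18.2, 15.0, 14.5 and 15.2 FPKM in the WT livers. The WT livers lay inside the range of the NKO livers, NKO4 was the highest of the 9 and NKO5 lay within the WT range. This gave a log2 fold change of −0.13 (95% interval −0.52 to 0.25; adjusted p = 0.938 from limma).

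*Nfkb1* (chr3:135584655-135691547, minus strand) encodes the precursor of the usual partner of the *Rela* product. Its level was 1.603, 1.944, 1.947 and 1.998 FPKM in NKO2 to NKO5, against 1.82, 1.74, 1.67, 1.71 and 1.59 FPKM in the WT livers. NKO3, NKO4 and NKO5 lay above all WT livers, and NKO2 lay near the lowest of them. It had a log2 fold change of 0.12 (95% interval −0.14 to 0.39; adjusted p = 0.922 from limma; exact permutation test, p = 0.119). This was the narrowest interval of the 9 genes.

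*Nfkb2* (chr19:46304320-46312385, plus strand) encodes the subunit precursor of the noncanonical pathway, in which processing is driven by NIK, the product of *Map3k14*. Its level was 1.73, 1.46, 1.25 and 3.78 FPKM in NKO2 to NKO5, against 2.25, 2.95, 1.86, 3.24 and 1.71 FPKM in the WT livers. NKO5 was the highest of the 9, and NKO3 and NKO4 were the lowest. The log2 fold change was −0.31 (95% interval −1.01 to 0.40; adjusted p = 0.926 from limma). Without NKO5 it was −0.63 (95% interval −1.17 to −0.10; unadjusted p = 0.0260 and adjusted p = 0.983 from limma; exact permutation test, p = 0.0714), and *Nfkb2* was then the only 1 of the 9 genes at an unadjusted p of 0.05, against 2.87% of all tested genes that were lower in NKO livers by this criterion. Since NKO5 was the highest liver for *Nfkb2*, leaving it out lowers the NKO mean by construction. The 2.87% is thus not a like-for-like background. Exons of *Psd* and of *AC114539.1* overlap those of *Nfkb2* on the opposite strand.

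*Relb* (chr7:19606217-19629438, minus strand) encodes the partner of the processed *Nfkb2* product. Its level was 0.473, 0.537, 0.585 and 1.86 FPKM in NKO2 to NKO5, against 1.07, 1.08, 0.495, 1.08 and 0.539 FPKM in the WT livers. WT1, WT2 and WT4 lay near 1.08 FPKM, whereas WT3 and WT6 were level with NKO2, NKO3 and NKO4. Its log2 fold change was −0.12 (95% interval −1.02 to 0.78; adjusted p = 0.980 from limma), or −0.53 without NKO5 (exact permutation test, p = 0.125). In the 5 libraries of higher depth other than NKO5, it was −0.90 for *Relb* (unadjusted p = 0.0158, adjusted p = 0.996 from limma) and −0.77 for *Nfkb2* (unadjusted p = 0.0213, adjusted p = 0.996 from limma), with 3 NKO livers against 2 WT livers. By this criterion 3.03% of all tested genes were lower in NKO livers. NKO5 was the highest liver for *Relb* and *Nfkb2*, so leaving it out lowers their NKO means by construction. This share is thus not a like-for-like background. All 12 Kupffer cell and macrophage markers had negative log2 fold changes in the same 5 libraries, with a median of −0.77 against −0.11 for all tested genes. At an unadjusted p of 0.05, 5 of them were lower, with *Marco*, a scavenger receptor gene, at −1.51, *Cd5l* at −0.98, *C1qc* at −0.80, *C1qa* at −0.74 and *Cd163* at −0.61. With the WT libraries of lower depth included and NKO5 left out, the median of the 12 markers was 0.02. The part of these cells in the levels of *Relb* and *Nfkb2* was not tested.

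**Figure D3:**
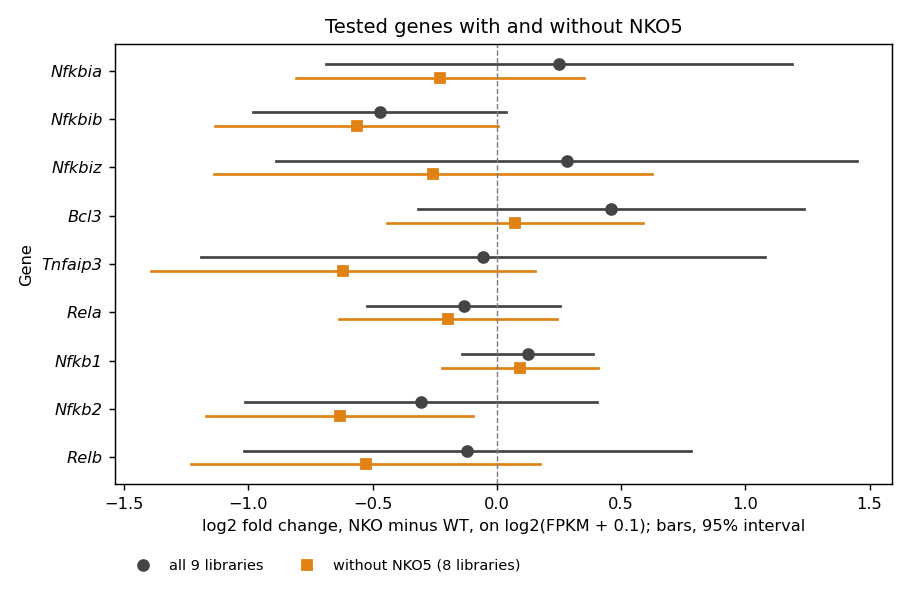
Log2 fold change, NKO minus WT, on log2(FPKM + 0.1) (x axis) for the 9 tested genes (rows), with all 9 libraries (dark circles) and without NKO5 (orange squares); bars are 95% intervals from limma. All 9 intervals cross 0 with all libraries, and without NKO5 the interval of Nfkb2 alone (−1.17 to −0.10) does not.

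The pattern of NKO5 was set out gene by gene against the median WT liver. On log2(FPKM + 0.1), NKO5 exceeded that median by 3.08 for *Tnf*, 2.15 for *Nfkbiz*, 1.86 for *Tnfaip3*, 1.64 for *Nfkbia* and 1.49 for *Bcl3*. The difference was 0.74 for *Relb* and 0.72 for *Nfkb2*, the subunits of the noncanonical pathway, and 0.21 for *Nfkb1*, 0.14 for *Rela* and −0.37 for *Nfkbib*. NKO5 was thus the highest of the 9 livers for 8 of the 10 genes (7 of the 9 tested), whereas it was the highest for 5.95% of all tested genes. It reached at least 2 times the highest of the other 8 livers for 4 of the 10 genes (*Tnf*, *Nfkbia*, *Nfkbiz* and *Bcl3*), a margin reached by 38 of the 12350 tested genes (0.308%). *Tnf* was not among the tested genes, so that share is to be set against *Nfkbia*, *Nfkbiz* and *Bcl3* only. These shares describe 1 liver, which has no replicate of its own. Its depth, 20.1 M fragments, was the highest of the 9.

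**Figure D4:**
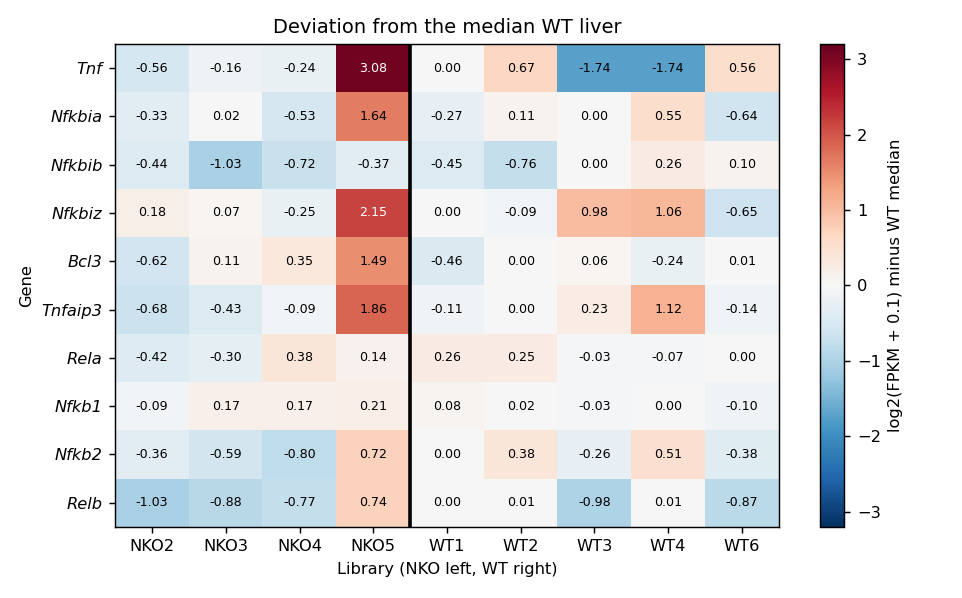
Difference from the median WT liver on log2(FPKM + 0.1) (color and printed value) for the 10 genes (rows) in the 4 NKO livers (left of the line) and the 5 WT livers (right). The NKO5 column runs from −0.37 for Nfkbib to 3.08 for Tnf, while Rela and Nfkb1 stay between −0.42 and 0.38 in every library.

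Without NKO5, 7 of the 9 tested genes had negative log2 fold changes, *Bcl3* and *Nfkb1* being the exceptions, and the median was −0.26. Of all tested genes, 48.6% had negative values in that comparison, with a median of 0.00843. None of the 9 passed an adjusted p of 0.05 in limma there. NKO5 was the highest liver for 7 of the 9 tested genes, against 5.95% of all tested genes. Leaving it out therefore lowers the NKO mean of those 7 by construction. The share and median over all tested genes are not a like-for-like background, so no group shift is read from this comparison.

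The genes differed in how far livers of 1 group lay apart. The SD of log2 levels among NKO livers was 0.99 for *Nfkbia*, 1.09 for *Nfkbiz*, 1.16 for *Tnfaip3* and 0.87 for *Bcl3*, each above 93% of all tested genes (percentiles 95.3, 96.2, 96.7 and 93.8), against a median of 0.27. The subunit genes *Relb* (0.83, percentile 93.0) and *Nfkb2* (0.68, percentile 88.9) also varied widely there, whereas *Nfkbib* did not (0.30, percentile 56.0). The spread thus did not follow the division into inhibitors and subunits. Among WT livers the SD of *Nfkbiz* was 0.74 (percentile 91.3) and that of *Tnfaip3* was 0.52 (percentile 81.9), while *Bcl3* varied little (0.22, percentile 35.0). At the other end, *Nfkb1* was among the steadiest genes of the liver, with an SD of 0.14 in NKO livers and 0.07 in WT livers (percentiles 17.9 and 1.68), and *Rela* had 0.37 and 0.16 (percentiles 66.8 and 18.6). Without NKO5 the SD among NKO livers was 0.28 for *Nfkbia*, 0.22 for *Nfkbiz* and 0.30 for *Tnfaip3*, near the median of all tested genes (0.28), whereas that of *Bcl3* was still 0.50 (percentile 77.6).

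FPKM is scaled to transcript length, so levels can be set in order across genes. Over all 9 livers, *Nfkbia* (mean 18.7 FPKM) and *Rela* (15.7 FPKM) were the most abundant, followed by *Bcl3* (11.9 FPKM) and *Nfkbib* (10.9 FPKM). These neighbors were not clearly ordered, since *Nfkbia* exceeded *Rela* in 5 of 9 livers and *Bcl3* exceeded *Nfkbib* in 4 of 9. A wide gap followed, and *Nfkbib* exceeded *Nfkbiz* (2.83 FPKM) in all 9 livers. *Nfkb2* (2.25 FPKM) and *Nfkb1* (1.78 FPKM) came next, with *Nfkbiz* above *Nfkb2* in 6 livers and *Nfkb2* above *Nfkb1* in 7. *Nfkb1* exceeded *Relb* (0.858 FPKM) in all 9, *Relb* exceeded *Tnfaip3* (0.770 FPKM) in 6, and *Tnfaip3* exceeded *Tnf* (0.478 FPKM) in 8. The 2 precursor genes were therefore several times less abundant than *Rela* in these livers.

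The balance between inhibitor and subunit transcripts was examined as ratios within a library, which do not depend on the scaling of libraries. *Nfkbia* over *Rela* was 1.48 ± 1.04 in NKO livers (SD, n = 4; 2.96 in NKO5) and 0.998 ± 0.374 in WT livers (SD, n = 5). The ratio of *Nfkbia* to *Nfkbib* was 1.26, 2.44, 1.33 and 4.71 in NKO2 to NKO5, against 1.32, 2.14, 1.17, 1.42 and 0.694 in the WT livers, and *Nfkb2* over *Nfkb1* was 1.09 ± 0.566 in NKO livers (SD, n = 4) and 1.40 ± 0.369 in WT livers (SD, n = 5). Groups overlapped in each, and over the 6 ratios computed the smallest p was 0.159 (exact permutation test, *Nfkbia* over *Nfkbib*; adjusted p = 0.698 over the 6 ratios).

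Since *Tnf* is at once a trigger and a target of the pathway, its level was related to that of each other gene across the 9 livers, giving 9 relations. The highest coefficient was for *Bcl3* (Pearson r = 0.732, exact permutation p = 0.0466, adjusted p = 0.361; Spearman rho = 0.310, p = 0.414). For *Nfkbia*, r was 0.513 (exact permutation p = 0.166, adjusted p = 0.433; rho = 0.159, p = 0.683), and for *Tnfaip3* it was 0.408 (p = 0.268, adjusted p = 0.473; rho = 0.0753, p = 0.853). *Relb* came second (r = 0.599, exact permutation p = 0.0803, adjusted p = 0.361; rho = 0.485, p = 0.187). NKO5 was the farthest from the median of *Tnf*, and WT3 and WT4, both at 0.0001 FPKM, shared the second place. Without NKO5 and WT3, r was 0.294 for *Bcl3*, −0.587 for *Nfkbia*, −0.595 for *Tnfaip3* and −0.15 for *Relb*. Without NKO5 and WT4, it was 0.0131 for *Bcl3*, −0.232 for *Nfkbia*, −0.185 for *Tnfaip3* and 0.533 for *Relb*, and without NKO5 alone it was 0.113, −0.554, −0.581 and 0.0903 for the same genes. The relations of *Bcl3*, *Nfkbia* and *Tnfaip3* thus rested on the extreme libraries, and that of *Relb* depended on which of the tied livers was left out. For *Rela*, r was low but steady, at 0.309 with all livers and 0.286 to 0.343 in these subsets and in the libraries of higher depth. Within the 6 libraries of higher depth, NKO5 among them, r was 0.877 for *Bcl3*, 0.971 for *Nfkbia*, 0.979 for *Tnfaip3* and 0.886 for *Relb*. No relation passed an adjusted p of 0.05, and 8 of the 9 *Tnf* values stood for 13.2 fragments or fewer.

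The tested genes whose levels ran most like that of *Nfkbia* over the 9 livers were *Rgs3* (r = 0.893), *Bcl2a1d* (0.892), *Icam1* (0.891), *Mir6972* (0.870) and *Adtrp* (0.870). *Icam1*, an endothelial adhesion molecule and a known NF-kB target, had 28.0 FPKM in NKO5 and 4.70 to 9.25 FPKM in the other 8. For *Tnf* they were *Ctdp1* (0.953), *Cxcl13* (0.942), *P2ry1* (0.931), *Plek* (0.928) and *2310009B15Rik* (0.918), and *Cxcl13*, a B cell chemokine, had 30.9 FPKM in NKO5 and 1.16 to 5.59 FPKM in the other 8. All 10 of these genes were highest in NKO5, and without it r was 0.439 to 0.795 for the genes like *Nfkbia* and 0.811 to 0.874 for those like *Tnf*. For *Rela* the genes were *Abhd17c* (0.970), *Coa7* (0.943), *Pawr* (0.937), *Gpd2* (0.931) and *Rnmt* (0.924), none of which was highest in NKO5. These coefficients are over 9 livers and were picked as the highest among 12350 genes. Without NKO5, the *Tnf* values stood for 13.2 fragments or fewer, with WT3 and WT4 at the value of an absent gene. Coefficients without those livers were not computed for these genes.

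Other genes of the pathway were described in lists. Among 24 tested genes of receptors and adaptors, 0 passed the adjusted threshold in limma. At an unadjusted p of 0.05, 0 were higher and 3 were lower in NKO livers, against 2.17% and 3.73% of all tested genes. The 3 were *Tnfrsf1b*, *Tnfrsf1a* and *Traf3*. *Tnfrsf1a* and *Tnfrsf1b* encode the receptors of TNF-alpha. *Tnfrsf1b* had 9.77, 8.07, 8.15 and 7.48 FPKM in NKO2 to NKO5, against 10.5, 10.2, 20.3, 16.0 and 17.8 FPKM in the WT livers. Its groups did not overlap, where 2.21% of all tested genes did not, and its log2 fold change was −0.78 (adjusted p = 0.695 from limma). *Tnfrsf1a* had 30.2, 25.9, 31.2 and 35.2 FPKM in NKO2 to NKO5, against 41.1, 35.1, 52.8, 38.5 and 52.2 FPKM in the WT livers, a log2 fold change of −0.51 (adjusted p = 0.783 from limma). For *Tnfrsf1b* the WT libraries of lower depth were again the highest, and within the 6 libraries of higher depth its log2 fold change was −0.31 (95% interval −0.68 to 0.06), while that of *Tnfrsf1a* was −0.32 and that of *Traf3* was −0.97. *Traf3*, an adaptor that restrains the noncanonical pathway, had 0.201, 1.38, 0.137 and 1.19 FPKM in NKO2 to NKO5, against 0.994 to 1.68 FPKM in WT livers. The log2 fold change of *Traf3* was −1.23 (adjusted p = 0.842 from limma). It rested on NKO2 and NKO4, since NKO3 and NKO5 lay within the WT range. *Il1rap*, the accessory chain of the interleukin-1 receptor, had a log2 fold change of 0.24. The median over the list was −0.11.

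Of the 7 genes of IKK and related kinases, all tested, 0 passed the adjusted threshold. At an unadjusted p of 0.05, 0 were higher and 1 was lower, against 2.17% and 3.73% of all tested genes. The lower gene was *Tbk1* (log2 fold change −0.58, adjusted p = 0.842 from limma), which encodes a kinase that also drives interferon induction. Its highest values were those of the 3 WT libraries of lower depth (6.90 to 7.45 FPKM), and within the 6 libraries of higher depth its log2 fold change was −0.31 (unadjusted p = 0.422 from limma). *Ikbke* (−0.44), *Map3k8* (−0.35) and *Chuk* (−0.12) did not pass. *Ikbkg*, the regulatory subunit of IKK, was the only member of the list that was highest in NKO5 (7.91 FPKM). The median was −0.17.

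Other Rel and IkB proteins and brakes on the pathway formed a list of 15 genes, of which 12 were tested and 0 passed the adjusted threshold. At an unadjusted p of 0.05, 1 was higher and 0 were lower, against 2.17% and 3.73% of all tested genes. The gene was *Otulin*, which encodes a deubiquitinase of linear chains, at 21.9, 24.7, 26.9 and 23.7 FPKM in NKO2 to NKO5, against 21.3, 21.7, 19.4, 21.8 and 17.0 FPKM in the WT livers. Its groups did not overlap, where 2.21% of all tested genes did not. The log2 fold change was 0.27 (adjusted p = 0.842 from limma), or 0.17 within the 6 libraries of higher depth. *Nfkbil1* (−0.34), *N4bp1* (0.56) and *Itch* (−0.12) did not pass. In NKO5, 5 of the 12 were at their highest, *Zfp36*, *Nfkbie*, *Rel*, *Zc3h12a* and *Tnip1*, against 5.95% of all tested genes.

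Known NF-kB targets formed a list of 30 genes, of which 20 were tested. None passed the adjusted threshold in limma. At an unadjusted p of 0.05, 0 were higher and 1 was lower, against 2.17% and 3.73% of all tested genes. The lower gene was *Lcn2*, which encodes the iron-chelator binding protein lipocalin-2. *Lcn2* had 18.5, 2.35, 19.2 and 68.0 FPKM in NKO2 to NKO5, against 51.1, 12.8, 420.3, 117.7 and 160.1 FPKM in the WT livers, a log2 fold change of −2.49 (adjusted p = 0.842 from limma), so that NKO5 was the highest NKO liver but lay within the WT range, and the 3 WT libraries of lower depth were the highest of all. Among the 6 higher-depth libraries *Lcn2* had a log2 fold change of −0.72 (unadjusted p = 0.587 from limma). *Irf1*, an interferon-responsive transcription factor gene, had 27.2 FPKM in NKO5, against 4.82 to 10.4 FPKM in the other NKO livers and 4.83 to 7.10 FPKM in WT livers, a log2 fold change of 0.81 (adjusted p = 0.886 from limma). *F3* (0.41) and *Il1rn* (−0.54) did not pass. The median was 0.18 with all libraries and −0.13 without NKO5. Of the 20 tested targets, 13 were highest in NKO5, against 5.95% of all tested genes. So were 19 of the 28 with a value in any library, a count for which no share over all genes was computed. The untested targets averaged under 0.5 FPKM, and some of the 19 stood at about 0.1 FPKM or less in NKO5. *Csf3* and *Nos2* were absent from every library.

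The difference of NKO5 from the other livers was compared across lists. The median ratio of its level to the median of the other 8 livers was 2.82 for the 9 tested subunit and inhibitor genes, 2.62 for the 20 targets, 1.66 for the 12 other Rel and IkB proteins and brakes, 1.16 for the 7 kinases and 1.001 for the 24 receptors and adaptors, and it was 0.993 over all tested genes. For the 4 tested neutrophil markers it was higher still, 3.54, and for the 12 Kupffer cell and macrophage markers it was 0.884. Among receptors and adaptors, 3 tested genes were nevertheless highest in NKO5, *Tlr2* (7.07 FPKM, against 0.737 to 1.91 FPKM in the other 8), *Irak3* and *Myd88*, against 5.95% of all tested genes. This is a description of 1 liver and carries no test.

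**Figure D5:**
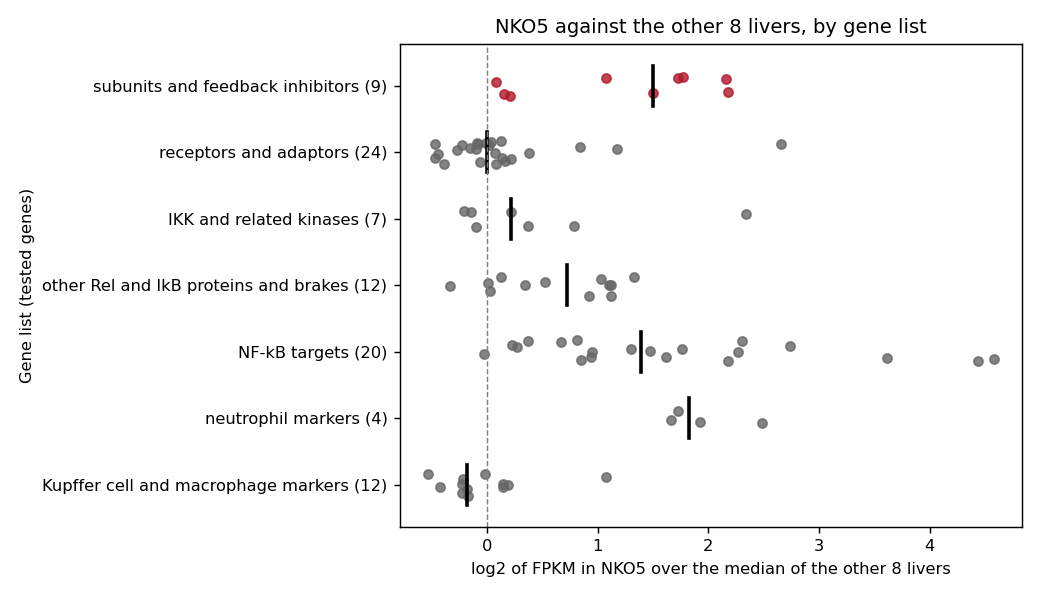
Log2 ratio of the level in NKO5 to the median of the other 8 livers (x axis) for the tested genes of each list (rows; the number of genes in parentheses); each point is a gene and black bars are medians. The median is 1.82 for the neutrophil markers, 1.50 for the subunits and feedback inhibitors, 1.39 for the targets, 0.00 for receptors and adaptors and −0.18 for the Kupffer cell and macrophage markers.

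Markers of other cells moved with NKO5 in part. All 4 neutrophil markers that could be tested (*S100a8*, *S100a9*, *Csf3r* and *Retnlg*) were highest in NKO5, against 5.95% of all tested genes. Of all 12 neutrophil markers, 8 were highest there, a count for which no share over all genes was computed. The 8 untested markers of the 12 averaged under 0.5 FPKM, where the highest liver can rest on few fragments. The summed level of the 12 was 4.27 to 23.3 FPKM in NKO livers and 6.19 to 12.6 FPKM in WT livers, and the 23.3 FPKM was that of NKO5. The granule genes *Mpo* and *Elane* and the surface marker gene *Ly6g* were at or near 0 in every library (means of 0.0036, 0.0116 and 0.0205 FPKM). The paper counted MPO-positive cells by antibody staining in livers of this model, so transcripts near 0 do not show that neutrophils were absent. Of the 12 Kupffer cell and macrophage markers, 0 were highest in NKO5, and their sum there, 193.3 FPKM, lay within the range of the other livers (159.9 to 320.8 FPKM in NKO livers, 130.6 to 398.3 FPKM in WT livers). None of the 6 hepatocyte, 7 sinusoidal endothelial, 8 lymphocyte, 5 stellate cell and 5 bile duct markers was highest in NKO5. The part of these cells in the levels of *Tnf*, *Nfkbia* and the other genes was not tested.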

How the data were processed

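Libraries were stranded TruSeq mRNA libraries from whole-liver RNA (integrity number over 7), read from both ends. For mapping the authors used HISAT2, for assembly StringTie, and the authors cite edgeR for estimating expression. Versions, genome build and strand setting are not given in the sources used here. The deposited values are FPKM, in which the authors list an absent gene at 0.0001. Depth was recovered from 15169 single-exon genes of at least 200 bases (15.2 to 20.1 M fragments per library; M, mega), and intervals and limits for a count of 0 cover counting error only. The table's further columns hold the authors' own fold changes, p-values, q-values and calls and were not used.

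A column's name (NKO or WT with a number) gave its group, and each of the 9 columns was taken as 1 mouse. The comparison used limma 3.58.1 (R 4.3.3), fitted without covariates and with a trended variance to log2(FPKM + 0.1) of every gene averaging 0.5 FPKM or more (12350 genes), and Benjamini-Hochberg adjustment over all of them; fold changes on this scale understate the change of low genes. The fit was tested on simulated data. Single genes, ratios and correlations were compared by two-sided exact permutation tests in Python 3.11.15. Coordinates and overlaps are from GENCODE M21 (GRCm38), which held 55141 of the identifiers, and promoter windows from RefSeq (GRCm38.p6).

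The genes named were the 10 genes themselves, *Ncf1* and *Lyz2* as a check of the deletion, up to 4 tested genes with the smallest unadjusted p of each list, any gene behind a count of 5 or fewer, and the 5 genes most correlated with *Nfkbia*, *Tnf* and *Rela*. *Alb*, *Mpo*, *Elane*, *Ly6g*, *Csf3*, *Nos2* and *Ikbkg* were named after their values were seen. The genes and lists were chosen with earlier results of these data known. Alternatives were pseudocounts of 0.5 and 1 FPKM, no filter, a mean of at least 1 FPKM, median-ratio scaling, no trend, array weights, each library left out, and the 6 libraries of higher depth. Fits of those 6 without NKO5, and correlations without NKO5, were added after the data were seen.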

Additional observations from a re-analysis of the deposited data

Results flagged for a closer look

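Each gene was examined in both groups for a liver far from the others of its group by Dixon's criterion at the 95% level. This gives 20 examinations of 4 or 5 livers, and chance alone sets off about 1 in 20 if values are normally distributed. The criterion was applied to FPKM without a log, for which that rate need not hold. It was met 7 times. In NKO5, *Tnf* was at 2.72 FPKM, *Nfkbia* at 49.5 FPKM, *Nfkbiz* at 8.22 FPKM, *Tnfaip3* at 2.24 FPKM and *Relb* at 1.86 FPKM, each far above the other NKO livers. These 5 results come from 1 library and are not independent of each other. Over all tested genes, NKO5 stood this far above the other NKO livers for 95 of 12350 (0.769%). *Bcl3* (28.9 FPKM) and *Nfkb2* (3.78 FPKM) were highest in NKO5 as well but did not meet the criterion. In the same liver the summed neutrophil markers were 23.3 FPKM, against 4.27 to 12.6 FPKM in the other 8 livers, and their part in these levels was not tested.

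In WT4, *Tnfaip3* was at 1.31 FPKM, far above the other WT livers, whose values were 0.487 to 0.658 FPKM. *Nfkb1* was far below the other NKO livers in NKO2, at 1.603 FPKM against 1.944 to 1.998 FPKM. For WT4 and NKO2 no share over all tested genes is given, so these results have no background to be set against.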

How the results depend on the processing

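No gene passed an adjusted p of 0.05 under any of the 18 alternative fits, and the lowest adjusted p of any gene was 0.369 (*Nfkbib*, array weights). The median log2 fold change ranged from −0.26 to 0.32. Its lowest value was without NKO5, the highest liver for 7 of the 9 tested genes, and so follows in part from leaving that liver out. The count at an unadjusted p of 0.05 was 1 with array weights (*Nfkbib*), 0 to 1 when a library was left out (*Bcl3* without NKO2, *Nfkb2* without NKO5, *Nfkbib* without WT2) and 2 in libraries of higher depth without NKO5 (*Relb* and *Nfkb2*). Of all tested genes, 11.3% passed with array weights, 4.40% to 9.97% with a library left out (6.65% without NKO2, 4.72% without NKO5, 9.97% without WT2) and 4.27% in libraries of higher depth without NKO5. The count with groups that did not overlap was 0 to 2 when a library was left out (2 without NKO2, *Bcl3* and *Nfkb1*) and 2 in libraries of higher depth without NKO5, where 2.84% to 6.23% (4.85% without NKO2) and 19.7% of all tested genes did not overlap. NKO2 was the lowest NKO liver for *Bcl3* and *Nfkb1*, and WT2 was the lowest WT liver for *Nfkbib*. NKO5 was the highest liver for *Relb* and *Nfkb2*. Leaving out such a liver moves the group mean of these genes by construction. Where a library was left out, the shares are thus not a like-for-like background for them.

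Signs changed for 5 of the 9 genes. *Tnfaip3* turned positive with pseudocounts of 0.5 (0.0192) and 1 (0.0398), with array weights (0.37), in libraries of higher depth (0.22), and without NKO2 (0.23), NKO3 (0.14), NKO4 (0.03) or WT4 (0.17), its range over libraries left out being −0.62 to 0.23. *Relb* turned positive with array weights (0.32) and without NKO2 (0.0637) or NKO3 (0.01; range −0.53 to 0.0637), and *Nfkb2* with array weights (0.0548). *Nfkbia* turned negative without NKO5 (−0.23; range −0.23 to 0.49) and in libraries of higher depth without it (−0.20), and *Nfkbiz* without NKO5 (−0.26; range −0.26 to 0.54). Array weights lower the weight of libraries that vary more, but the weights of the single libraries were not examined. The cause of the sign changes was not tested.

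Correlations with *Tnf* turned negative without NKO5 and WT4 for *Nfkbia* (−0.232), *Nfkbiz* (−0.891) and *Tnfaip3* (−0.185), without NKO5 and WT3 for *Nfkbia* (−0.587), *Nfkbiz* (−0.896), *Tnfaip3* (−0.595), *Relb* (−0.15), *Nfkb1* (−0.0156) and *Nfkb2* (−0.262), and without NKO5 alone for *Nfkbia* (−0.554), *Nfkbiz* (−0.930), *Tnfaip3* (−0.581) and *Nfkb2* (−0.174). That of *Nfkbib* turned positive in libraries of higher depth (0.412). No paired analysis was possible because the columns' numbers could not be tied to the replicate numbers of the labels. With about 15.2 to 20.1 M fragments per library, levels under about 0.1 FPKM could not be separated from 0 for a transcript the length of *Tnf*.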
